A study of Homo sapiens with 15 samples.

Results

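The genes described here are 10 that set or read out nutrient signalling to mTORC1: SESN1, SESN2, SESN3, EIF4EBP1, EIF4EBP2, RRAGC, RRAGD, DDIT4, DEPTOR and TSC1. They were taken by symbol from the 18377 genes of the table, and each was measured by 1 array feature that no other gene shared. They were proposed with values of these same arrays in view, so their levels, changes and limma calls are given as a description of these arrays and not as independent tests, and nothing is read from how many of them passed. PC3 and DU145 are established prostate cancer cell lines, from a bone and a brain metastasis per the labels. Each line was studied without transfection and, by lipofection at 20 nM, with mimics of miR-224 or miR-452 or with a scrambled control mimic, and RNA was extracted 48 h later. Mimics are short synthetic RNA duplexes from which the cell loads a mature microRNA, and the scrambled mimic carries a sequence with no intended target. Groups had 2 arrays each, except the DU145 scrambled group with 1, whose spread was taken from the other DU145 groups. The submitters had left a further DU145 scrambled array out for bad performance. The labels do not say whether the arrays of a group came from separate cultures, so the spread may be technical. The series title names a locus shared by GABRE and these microRNAs, and the comparisons ask what changes when miR-224 or miR-452 is supplied.

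mTORC1 is a protein kinase complex that works at the surface of the lysosome and promotes protein synthesis and growth. Amino acids reach it through the Rag GTPases, pairs of RagA or RagB with RagC (RRAGC) or RagD (RRAGD), which the GATOR1 complex holds off and GATOR2 releases. The sestrins (SESN1, SESN2 and SESN3) bind GATOR2 and so act as a brake, and leucine is known to release SESN1 and SESN2 from it. Growth factor and energy signals arrive through the TSC complex, in which TSC1 stabilises TSC2, a GTPase-activating protein for RHEB. DDIT4, also called REDD1, acts upstream of that complex under stress, and DEPTOR binds mTOR itself and inhibits it. The 4E-BPs (EIF4EBP1 and EIF4EBP2) hold the cap-binding protein eIF4E until mTORC1 phosphorylates them. RRAGC and RRAGD therefore carry the nutrient signal, while the other 8 genes are known as brakes.

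The mature microRNAs are shown because a microRNA is known to find its targets through its seed, bases 2 to 8 from the 5′ end, which are in capitals. The sequences are RefSeq entries on GRCh38.p14. The labels do not name the arm of the mimics, and the 5p arms are printed as the arms of those names that are best known.
hsa-miR-224-5p: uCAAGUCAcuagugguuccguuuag
hsa-miR-452-5p: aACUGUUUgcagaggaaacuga
The first has 25 bases and lies at chrX:151958628-151958652 on the minus strand, and the second has 22 bases and lies at chrX:151959678-151959699 on the same strand. The seeds are not the same. Transcript sequences were not used here, so no seed match in the 10 genes was looked for.

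The log2 values lay between 4.49 and 14.18, and replicate arrays had correlations of 0.992 to 0.998 across features. Precision is limited by how few arrays there were. The lines were normalized separately, so a level in PC3 cannot be set against one in DU145. The keratin genes KRT8, KRT18 and KRT19 lay at percentile 97 or above of all genes in both lines. The epithelial genes EPCAM and CDH1 lay at 55 and 40 in PC3 and 85 and 86 in DU145. Of the luminal prostate markers, KLK3 lay at 30 and 23 and HOXB13 at 92 and 35. The 4 leukocyte markers ranged from percentile 2 (PTPRC) to 27 in PC3 and from 6 to 36 (CD14) in DU145. The 5 fibroblast markers ranged from 2 (DCN) to 70 (COL1A1) and from 1 (LUM) to 59 (COL1A1), and the 5 endothelial markers from 13 to 79 (KDR) and from 4 to 24. Within PC3 the SD of all values on an array was 1.78 to 1.81 for untransfected cells and 1.71 to 1.76 for transfected cells, and in DU145 it was 1.65 against 1.52 to 1.59. The part of this narrower spread in the values below was not tested.

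Changes are differences of mean log2 levels ± the standard error from limma, and a gene is said to pass where its Benjamini-Hochberg adjusted p over all 18377 genes was under 0.05. Against the scrambled mimic, miR-224 in PC3 left 4 of the 10 genes past this threshold, SESN3, EIF4EBP2, RRAGC and TSC1, all higher, where 16.8% of all genes passed (12.1% higher and 4.65% lower, or 10.7% and 8.10% after quantile normalization). Against untransfected PC3 cells 3 passed, SESN3, EIF4EBP2 and TSC1, again higher, where 9.69% of all genes did (2.84% higher and 6.85% lower, or 4.67% and 6.01%). That count became 1, EIF4EBP2, without untransfected array c or miR-224 array b. With miR-452 RRAGC alone passed in PC3 against the scrambled mimic, higher, where 5.22% of all genes passed (2.89% higher and 2.33% lower), and 0 of the 10 passed against untransfected cells by limma (0 also at an unadjusted p under 0.05), where 22.2% of all genes did. RRAGC was also the 1 gene that passed between scrambled and untransfected PC3 cells, lower, where 14.2% of all genes did (3.32% higher and 10.9% lower, or 5.01% and 6.33%). Against each other the mimics differed in PC3 for SESN3, EIF4EBP2 and TSC1, higher with miR-224, and RRAGC, lower, where 18.5% of all genes passed (12.5% higher and 5.99% lower, or 11.2% and 8.56%). Those 4 became 2 without miR-224 array b.

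In DU145 the miR-224 mimic left 2 of the 10 past the threshold against the scrambled array, SESN3 and EIF4EBP2, both higher, where 1.94% of all genes passed (0.631% higher and 1.31% lower, or 1.31% and 1.74% after quantile normalization). Dropping a miR-224 array took the count to 0, dropping an untransfected array to 1, and dropping a miR-452 array to 5, whichever of the pair was dropped. Against untransfected DU145 cells 4 passed, with SESN3 and EIF4EBP2 higher and RRAGC and RRAGD lower, where 21.0% of all genes did (5.44% higher and 15.5% lower, or 5.45% and 8.46%). Dropping untransfected array b or miR-224 array a took the count of 4 to 1, and dropping array c of either group to 2. For miR-452, RRAGC passed against the scrambled array, higher, where 2.10% of all genes passed (0.577% higher and 1.52% lower, or 1.94% and 1.95%), and a second gene passed without miR-452 array c. SESN3 passed against untransfected cells, lower, where 28.2% of all genes did (8.31% higher and 19.9% lower), and this count of 1 became 0 without untransfected array c and 2 without miR-452 array c. RRAGC passed between the scrambled array and untransfected cells, lower, where 11.8% of all genes did (2.60% higher and 9.22% lower, or 1.86% and 3.27%). Dropping either untransfected array took that count to 0, and dropping either miR-452 array to 3. The mimics differed for SESN3 and EIF4EBP2, higher with miR-224, where 5.91% of all genes passed (3.53% higher and 2.38% lower), and the 2 became 1 without miR-224 array a and 4 without miR-452 array c. SESN1, SESN2, EIF4EBP1, DDIT4 and DEPTOR passed in none of these 12 comparisons. In each comparison the median change of all genes lay between -0.02 and 0.03. That of the 10 genes was 0.23 in PC3 and 0.26 in DU145 for miR-224 against the scrambled mimic, and 0.08 and 0.11 against untransfected cells. For miR-452 it was 0.05 and -0.02, and 0.07 and -0.03, in the same order. For the scrambled mimic against untransfected cells it was 0.00 and -0.11. The 10 were chosen with values of these arrays in view, so no shift of the group is read from their medians.

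**Figure D1:**
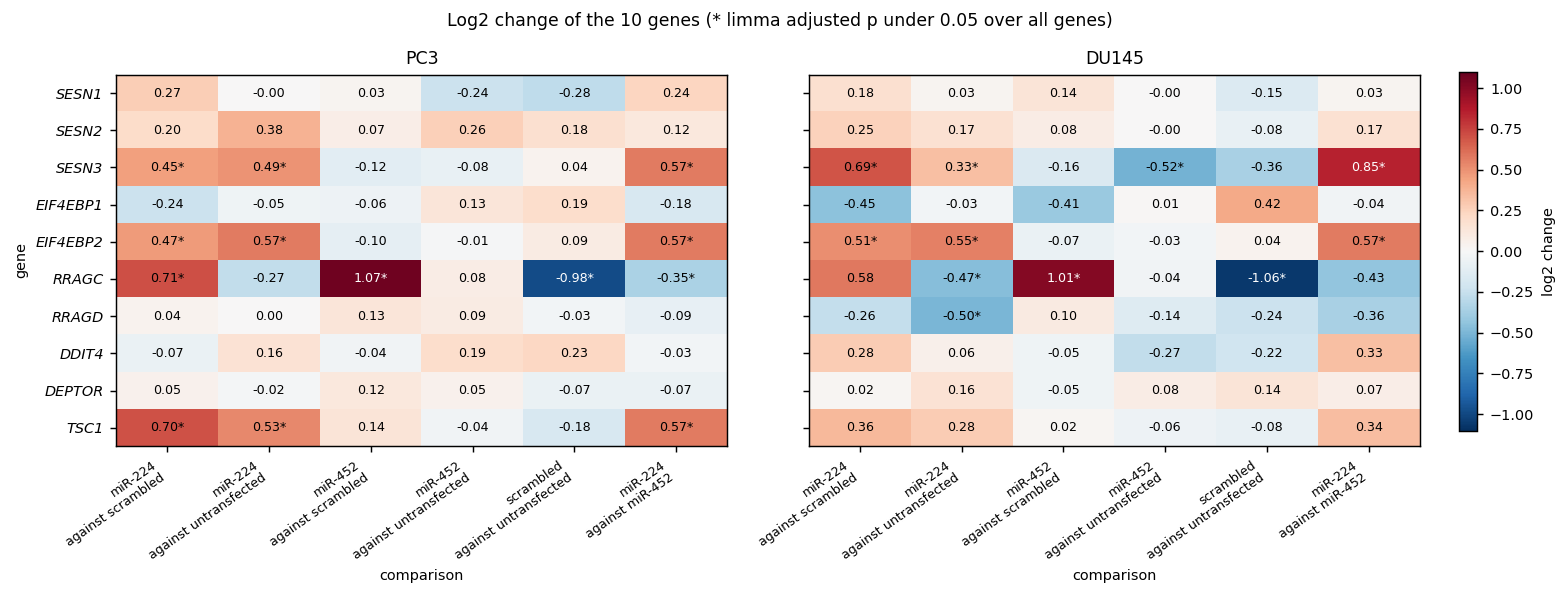
Log2 change of each of the 10 genes (rows) in the 6 comparisons of each line (columns), by colour and printed value, with an asterisk where the limma adjusted p over all genes was under 0.05. In both lines SESN3 and EIF4EBP2 are higher with miR-224 in each of its 3 comparisons, and RRAGC has the widest range of values, from -1.06 to 1.07.

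SESN3 was higher with the miR-224 mimic in both lines. Of the sestrins it is the one best known as a target of the FOXO transcription factors. On the PC3 arrays it read 6.30 and 6.27 in untransfected cells, 6.11 and 6.55 with the scrambled mimic, 6.72 and 6.84 with miR-224 and 6.23 and 6.19 with miR-452. Both miR-224 arrays lay above the other 6, while the scrambled arrays spanned the untransfected and miR-452 values. The change with miR-224 was 0.45 ± 0.12 against the scrambled mimic, 0.49 ± 0.12 against untransfected cells and 0.57 ± 0.12 against miR-452. The first no longer passed without scrambled array b, where it was 0.23, without miR-224 array b (0.39), or when only those 2 groups were fitted. The second was lost without any 1 of the 4 arrays compared (0.44 to 0.55), and the third without miR-224 array b (0.51). Fewer cells expressing a gene and less RNA per cell cannot be told apart in such bulk RNA, here or below.

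The DU145 arrays read 7.12 and 7.20 for SESN3 in untransfected cells, 6.80 with the scrambled mimic, 7.44 and 7.54 with miR-224 and 6.61 and 6.67 with miR-452. The 4 groups did not overlap, in the order miR-452, scrambled, untransfected and miR-224. The miR-224 arrays lay 0.33 ± 0.087 above untransfected cells, 0.69 ± 0.11 above the scrambled array and 0.85 ± 0.087 above miR-452. The miR-452 arrays lay 0.52 ± 0.087 below untransfected cells, a change of -0.52 that no longer passed without untransfected array c (-0.48). The differences between neighbours in this order did not all pass: the scrambled array stood at -0.36 ± 0.11 against untransfected cells, and miR-452 at -0.16 ± 0.11 against the scrambled array. The call against untransfected cells was lost without any 1 of its 4 arrays (0.28 to 0.38) and that against the scrambled array without either miR-224 array (0.63 and 0.74), while the difference between the mimics passed without each array in turn. The 250 bases before the start of SESN3, which was the sestrin with the largest changes, lie at chr11:95232476-95232725 on the minus strand of GRCh38.p14 (RefSeq).
SESN3: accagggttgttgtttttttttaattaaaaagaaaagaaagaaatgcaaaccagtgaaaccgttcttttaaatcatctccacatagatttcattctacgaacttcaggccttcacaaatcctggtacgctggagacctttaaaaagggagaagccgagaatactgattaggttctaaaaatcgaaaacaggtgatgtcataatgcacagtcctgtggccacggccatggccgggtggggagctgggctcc
Of these bases 42.8% are G or C, with 7 CpG dinucleotides, where the median of 35116 such windows is 58% and 11.

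SESN1 and SESN2 passed in no comparison. Both are known targets of p53, and SESN2 is a leucine sensor that is also induced by ATF4. For SESN1 the PC3 arrays ran from 6.36 to 6.90 and the DU145 arrays from 5.59 to 5.78, and the miR-452 arrays of PC3 (6.36 and 6.62) overlapped each of the other groups there. SESN2 read 7.23 and 7.20 in untransfected PC3 cells, 7.58 and 7.22 with the scrambled mimic, 7.58 and 7.61 with miR-224 and 7.60 and 7.35 with miR-452. The untransfected arrays were low and close together, while 1 scrambled array lay beside them and the other beside the miR-224 arrays. Its change with miR-224 was 0.38 ± 0.12 against untransfected PC3 cells and 0.20 ± 0.12 against the scrambled mimic. The first passed without either scrambled array, with genes under percentile 20 left out, or with only those 2 groups fitted. In DU145 SESN2 read 7.27 and 7.25, 7.18, 7.31 and 7.55, and 7.09 and 7.42 in the same order of groups, and the miR-452 arrays spanned those of untransfected cells and the scrambled array.

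EIF4EBP2 was higher with miR-224 in both lines, by nearly the same amount in the deposited values. It encodes 4E-BP2, which competes for eIF4E. PC3 arrays read 11.79 and 11.73 in untransfected cells, 11.90 and 11.82 with the scrambled mimic, 12.34 and 12.31 with miR-224 and 11.80 and 11.71 with miR-452. The miR-224 arrays stood clear of the other 6, which lay within 11.71 to 11.90. In DU145 the values were 10.35 and 10.36, 10.40 with the scrambled mimic, 10.95 and 10.86 with miR-224 and 10.28 and 10.38 with miR-452, and again both miR-224 arrays lay above all others. The change against untransfected cells was 0.57 ± 0.079 in PC3, or 1.48-fold, and 0.55 ± 0.086 in DU145, or 1.46-fold. Against the scrambled mimic it was 0.47 ± 0.079 and 0.51 ± 0.11, and against miR-452 it was 0.57 ± 0.079 and 0.57 ± 0.086. Between PC3 and DU145 the change against untransfected cells differed by 0.02 ± 0.11, which did not pass. After quantile normalization that change was 0.59 in PC3 and 0.72 in DU145, and the difference of -0.13 did not pass either.

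In PC3 each of the 3 differences of EIF4EBP2 passed without each array in turn. In DU145 so did the difference from untransfected cells, although it did not pass with the letter of the array title fitted as a block. The difference from the scrambled array was lost without any 1 of the untransfected and miR-224 arrays (0.46 to 0.55), and that from miR-452 without miR-224 array a (0.53). The EIF4EBP2 promoter is shown because the deposited changes of this gene against untransfected cells passed and were close in both lines. The 250 bases before the start lie at chr10:70403895-70404144 on the plus strand of GRCh38.p14 (RefSeq).
EIF4EBP2: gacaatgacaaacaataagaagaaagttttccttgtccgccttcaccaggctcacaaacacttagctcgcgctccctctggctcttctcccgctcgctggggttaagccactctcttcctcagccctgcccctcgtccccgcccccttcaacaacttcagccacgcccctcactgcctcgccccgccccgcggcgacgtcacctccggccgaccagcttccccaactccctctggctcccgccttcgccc
Of these bases 63.2% are G or C, with 18 CpG dinucleotides.

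EIF4EBP1, the paralog that encodes 4E-BP1, moved differently. The PC3 arrays read 9.67 and 9.77 in untransfected cells, 9.92 and 9.90 with the scrambled mimic, 9.73 and 9.62 with miR-224 and 9.81 and 9.90 with miR-452. DU145 arrays read 9.17 and 9.29, 9.65 with the scrambled mimic, 9.24 and 9.16 with miR-224 and 9.12 and 9.37 with miR-452. In both lines a scrambled array was the highest, and the untransfected and miR-224 arrays overlapped. The miR-224 change against the scrambled mimic was -0.24 ± 0.081 in PC3 and -0.45 ± 0.13 in DU145, and against untransfected cells it was -0.05 ± 0.081 and -0.03 ± 0.10. None passed, although in PC3 after quantile normalization the first did, at -0.32. So did scrambled against untransfected cells in PC3 (0.31, from 0.19) and in DU145 (0.59, from 0.42). Without either miR-452 array, whose spread enters the DU145 fit, the miR-224 change against the scrambled array and the scrambled value of DU145 passed as well.

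RRAGC had the largest changes of the 10 genes, and its level was lowest with the scrambled mimic. RagC, its product, pairs with RagA or RagB and, when bound to GDP, helps to recruit mTORC1. On the PC3 arrays it read 9.58 and 9.37 in untransfected cells, 8.60 and 8.39 with the scrambled mimic, 9.13 and 9.29 with miR-224 and 9.56 and 9.57 with miR-452. In DU145 it read 7.35 and 7.51, 6.37 with the scrambled mimic, 6.90 and 7.01 with miR-224 and 7.24 and 7.53 with miR-452. The order was the same in both lines, with scrambled lowest, miR-224 next, and miR-452 and untransfected cells highest. The last 2 groups overlapped and no other neighbours did.

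The scrambled arrays lay below untransfected cells by 1.98-fold in PC3 (-0.98 ± 0.10) and 2.08-fold in DU145 (-1.06 ± 0.14). Compared with the scrambled mimic, RRAGC was 2.10-fold higher with miR-452 in PC3 (1.07 ± 0.10) and 2.02-fold higher in DU145 (1.01 ± 0.14), and differed from untransfected cells by 0.08 ± 0.10 and -0.04 ± 0.11. With miR-224 it was 0.71 ± 0.10 above the scrambled mimic in PC3 and 0.58 ± 0.14 in DU145, of which the second did not pass. It did after quantile normalization (0.63), with genes under percentile 20 left out, with only those 2 groups fitted, or without either miR-452 array. Against untransfected cells the direction was the opposite, at -0.27 ± 0.10 in PC3, which did not pass, and -0.47 ± 0.11 in DU145, which did. In both lines the sign of the miR-224 difference in RRAGC was not the same against the scrambled mimic as against untransfected cells.

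Leaving out single arrays ended some of these calls. In PC3 the scrambled value and both changes against the scrambled mimic passed without each array in turn, as did the miR-452 change against the scrambled array in DU145. That DU145 change did not pass with the letter of the array title fitted as a block. The difference between miR-224 and miR-452 in PC3, -0.35 ± 0.10, was lost without any 1 of those 4 arrays (-0.27 to -0.43). In DU145 the scrambled value was lost without either untransfected array (-0.98 and -1.13), and the miR-224 change against untransfected cells without any 1 of its 4 arrays (-0.40 to -0.55). The 250 bases before the start of RRAGC are shown as those of the gene with the largest changes, and lie at chr1:38859773-38860022 on the minus strand of GRCh38.p14 (RefSeq).
RRAGC: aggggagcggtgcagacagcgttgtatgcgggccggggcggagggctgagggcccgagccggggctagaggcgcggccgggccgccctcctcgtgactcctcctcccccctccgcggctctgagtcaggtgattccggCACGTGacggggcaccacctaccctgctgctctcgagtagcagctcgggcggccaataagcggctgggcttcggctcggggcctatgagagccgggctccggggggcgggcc
The capitals mark CACGTG, the core of the element that the MiT/TFE factors TFEB, TFE3 and MITF are known to bind; its first base lies 112 bases before the start. Of all 35116 windows, 6.34% hold this motif, which reads the same on both strands. Of the 10 genes, 7 had at least 1 window, 9 windows in all, and RRAGC was the only one with the motif. Neither the forkhead element TGTTTAC, in 2.98% of all windows, nor the ATF4 element TGATGNAA, in 3.14%, searched on both strands, was in those 9 windows. The RRAGC window is 73.6% G or C with 26 CpG dinucleotides.

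RRAGD, the paralog of RRAGC, did not share its pattern. RRAGD is known as a target of TFEB. PC3 arrays lay between 5.39 and 5.63, and the miR-224 arrays spanned those of the other groups. The median percentile of RRAGD among all genes was 9 in PC3 and 52 in DU145. At so low a level in PC3, a lack of change does not show that RRAGD failed to respond there. In DU145 RRAGD read 7.27 and 7.07 in untransfected cells, 6.93 with the scrambled mimic, 6.54 and 6.80 with miR-224 and 7.0 and 7.05 with miR-452. The miR-224 arrays were the lowest there, and the untransfected arrays the highest. The change against untransfected cells was -0.50 ± 0.11, a call lost without untransfected array b (-0.40) or miR-224 array a (-0.37), and it was 0.00 ± 0.089 in PC3. By limma 0 of the 10 genes differed between the lines in the miR-224 change against untransfected cells (1 higher and 0 lower in PC3 at an unadjusted p under 0.05), where 5.13% of all genes did (4.33% higher in PC3 and 0.794% lower, or 2.88% and 1.58% after quantile normalization). RRAGD had the largest difference, 0.50 ± 0.14, and passed without PC3 miR-224 array a or either DU145 miR-452 array.

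**Figure D2:**
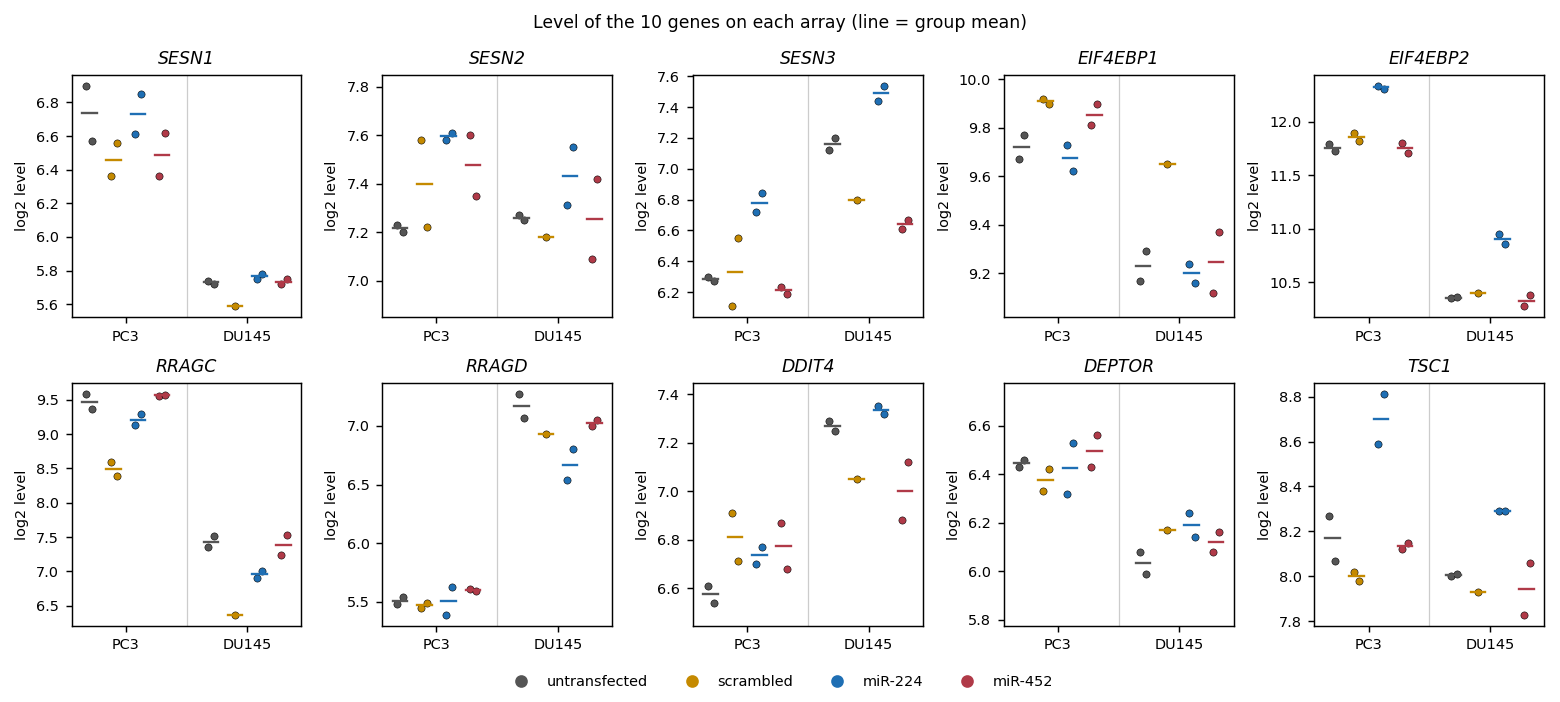
Deposited log2 level (vertical axis, its own scale for each gene) of the 10 genes on the 15 arrays, grouped by line and coloured by treatment, with a line at each group mean. RRAGC is lowest on the scrambled arrays of both lines (8.60 and 8.39 in PC3, 6.37 in DU145), and EIF4EBP2 is highest on the miR-224 arrays of both (12.34 and 12.31, 10.95 and 10.86).

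TSC1, the scaffold of the TSC complex, was highest with miR-224 in both lines. The PC3 values were 8.27 and 8.07 in untransfected cells, 8.02 and 7.98 with the scrambled mimic, 8.59 and 8.81 with miR-224 and 8.12 and 8.15 with miR-452. In DU145 they were 8.0 and 8.01, 7.93 with the scrambled mimic, 8.29 and 8.29 with miR-224 and 7.83 and 8.06 with miR-452. The miR-224 arrays lay above all others of their line, and the other 3 groups lay close together, with untransfected and miR-452 arrays overlapping in both lines. In PC3 the change was 0.70 ± 0.096 against the scrambled mimic, or 1.63-fold, 0.53 ± 0.096 against untransfected cells and 0.57 ± 0.096 against miR-452. The first and the third passed without each array in turn, and the second was lost without untransfected array c (0.43) or miR-224 array b (0.42). The DU145 changes of 0.36 ± 0.12, 0.28 ± 0.096 and 0.34 ± 0.096 in the same order did not pass. After quantile normalization the second and the third did, at 0.48 and 0.30. Without either miR-452 array the first and second passed, and the third without miR-452 array c. The change against untransfected cells differed between the lines by 0.24 ± 0.14, which did not pass, so TSC1 is not shown to respond in PC3 alone.

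DDIT4 and DEPTOR passed in no comparison. DDIT4, a stress-induced gene that ATF4, HIF-1 and p53 are each known to induce, read 6.61 and 6.54 in untransfected PC3 cells and 6.68 to 6.91 on the transfected arrays, which overlapped. In DU145 it read 7.29 and 7.25 in untransfected cells, 7.05 with the scrambled mimic, 7.35 and 7.32 with miR-224 and 6.88 and 7.12 with miR-452. The miR-224 arrays were the highest in DU145 and did not overlap with the others, but their change against untransfected cells was only 0.06 ± 0.097. In PC3 the miR-224 arrays, at 6.70 and 6.77, were not the highest. The miR-452 change of DDIT4 against untransfected cells was 0.19 in PC3 and -0.27 in DU145, and the difference between the lines was 0.46 ± 0.14. By limma 0 of the 10 genes differed between the lines in that change (2 higher and 0 lower at an unadjusted p under 0.05), where 2.88% of all genes did (2.20% higher and 0.680% lower). DDIT4 passed without DU145 miR-452 array c, and SESN3, with a difference of 0.45 ± 0.16, without either PC3 scrambled array. DEPTOR lay between 6.32 and 6.56 on the PC3 arrays and between 5.99 and 6.24 in DU145. Its group means spanned at most 0.16 within a line, the smallest span of the 10 genes, against 1.07 for RRAGC, 0.85 for SESN3 and 0.70 for TSC1.

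For these last 3 genes, the genes with the most similar pattern were found by Pearson r over the 15 arrays after each line's mean was subtracted. The arrays share their line, group and normalization, so r is a description. RRAGC was matched by RIMOC1 (r = 0.97), CMPK1, a pyrimidine nucleotide kinase (0.96), and TFDP1, a partner of the E2F factors (0.96). All 3 had their lowest group mean with the scrambled mimic, at -0.79, -0.98 and -0.47 against untransfected cells in PC3 and -0.72, -0.82 and -0.42 in DU145. For miR-452 against untransfected cells they stood at 0.09, 0.09 and -0.01 in PC3 and 0.06, 0.03 and -0.05 in DU145. TSC1 was matched by CAPZB, an actin capping protein (0.96), AREL1, a ubiquitin ligase (0.95), and ZNF652, a zinc finger factor (0.94), with miR-224 changes against untransfected cells of 0.21, 0.37 and 0.80 in PC3 and 0.09, 0.18 and 0.29 in DU145. SESN3 was matched less closely, by KDM5B, a histone demethylase (0.88), MYADM (0.87) and LRRIQ1 (0.87).

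**Figure D3:**
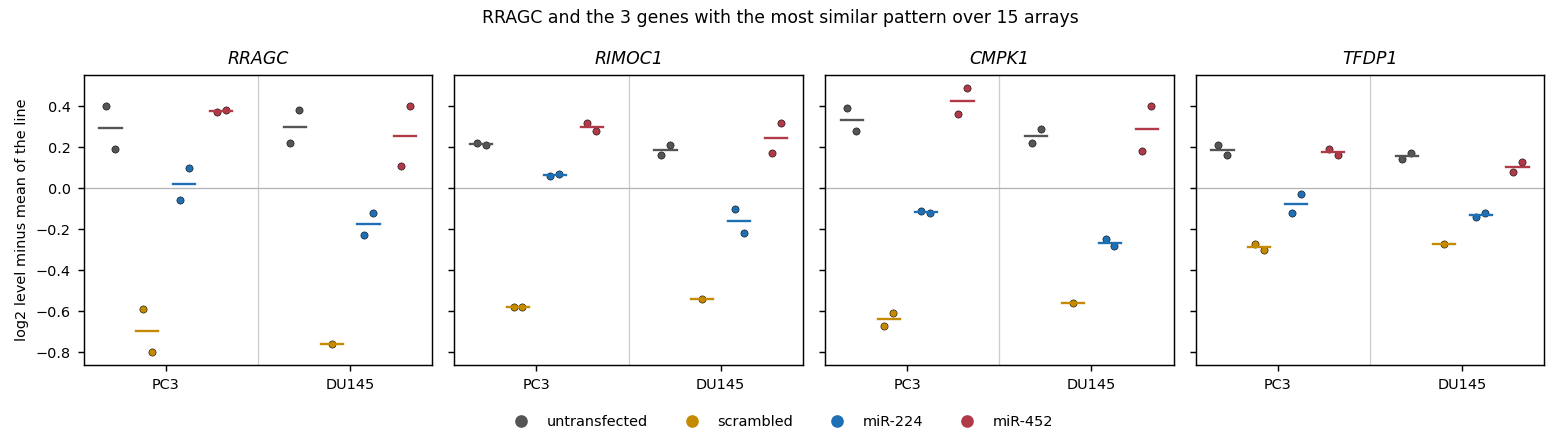
Log2 level minus the mean of the line (vertical axis) on the 15 arrays for RRAGC and the 3 genes most like it, by line and treatment, with a line at each group mean. In every panel and line the scrambled mean is lowest, with arrays at -0.59 and -0.80 in PC3 for RRAGC, and the miR-224 mean lies between it and the untransfected mean.

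Around the 10 genes, 45 other genes of the mTORC1 pathway were measured: 4 of the kinase complex, 10 of the Rag, Ragulator and folliculin group, 13 of GATOR, KICSTOR and the nutrient sensors, 10 of the TSC and AMPK arm and 8 outputs. These lists and the upstream lists further below were also chosen with earlier results of these data known. Their shares and adjusted p-values are therefore a description and not independent tests. In PC3 with miR-224, 11 rose and 4 fell against the scrambled mimic, with a median of 0.08 where that of all genes was -0.01, and 33.3% passed against 16.8% of all genes. LAMTOR3, a Ragulator subunit that anchors the Rags, rose by 0.59 ± 0.080 (limma adjusted p = 0.000655). Subunits of AMPK, the energy sensor that activates the TSC complex, rose as well, with PRKAA2, a catalytic subunit, at 0.76 ± 0.11 (adjusted p = 0.00098) and PRKAB2, a regulatory subunit, at 0.55 ± 0.081 (0.00102). ULK1, the kinase that starts autophagy, fell by 0.50 ± 0.096 (0.00447), the other AMPK regulatory subunit PRKAB1 by 0.32 ± 0.077 (0.015) and MIOS, a subunit of GATOR2, by 0.33 ± 0.086 (0.0225). The count of 15 became 9 without miR-224 array a and 6 without array b. The calls of PRKAB1 and MIOS were lost without scrambled array b (-0.27 for each) or either miR-224 array.

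Against untransfected PC3 cells 4 of the 45 rose and 5 fell with miR-224, or 20.0% of them against 9.69% of all genes. PRKAB2 rose by 0.58 ± 0.081 (limma adjusted p = 0.00128), and LAMTOR3 (0.32 ± 0.080) and FNIP2 (0.35 ± 0.099), a partner of folliculin, passed as well. MIOS fell by 0.60 ± 0.086 (0.00158), PRKAB1 by 0.49 ± 0.077 (0.00269) and SEH1L, another GATOR2 subunit, by 0.46 ± 0.091 (0.00889). ULK1 stood at -0.19 and did not pass. The 9 became 4 without either untransfected array and 3 without miR-224 array b. LAMTOR3 was lost without any 1 of the 4 arrays compared (0.26 to 0.38), FNIP2 without either untransfected array, miR-224 array b (0.20) or either miR-452 array, and SEH1L without untransfected array b (-0.39) or miR-224 array b (-0.40). With miR-452 0 rose and 7 fell against untransfected cells, or 15.6% of the 45 where 22.2% of all genes passed and 14.1% fell. They were led by PRKAB1 (-0.59 ± 0.077, adjusted p = 0.00068), SEH1L (-0.52 ± 0.091) and ITFG2, a KICSTOR subunit (-0.41 ± 0.083). The 7 became 1 without untransfected array b, where SEH1L (-0.45) and ITFG2 (-0.39) no longer passed, and 4 without miR-452 array c. Against the scrambled mimic MIOS rose (0.40 ± 0.086, adjusted p = 0.0204) and PRKAB1 fell (-0.42 ± 0.077, 0.00895) with miR-452, 4.4% of the 45 where 5.22% of all genes passed. This count of 2 became 1 without either scrambled array or miR-452 array b and 0 without miR-452 array c. Between the scrambled mimic and untransfected cells 1 rose, ULK1 (0.32 ± 0.096, 0.0488), and 6 fell, among them the AMPK catalytic subunit PRKAA1 (-0.41 ± 0.087, 0.0138), and their 15.6% was near the 14.2% of all genes. That 7 became 0 without untransfected array b or scrambled array c, and 4 without scrambled array b or either miR-224 array.

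MIOS also set the mimics apart. It was lower with miR-224 than with miR-452 by 0.73 ± 0.086 in PC3 (limma, -0.73, adjusted p = 2e-04) and by 0.65 ± 0.11 in DU145 (-0.65, adjusted p = 0.00807, lost without miR-224 array c at -0.60). In that comparison 9 of the 45 were higher and 5 lower in PC3, or 31.1% against 18.5% of all genes, led on the higher side by PRKAA2 (0.84 ± 0.11), PRKAA1 (0.57 ± 0.087) and LAMTOR3 (0.48 ± 0.080), and the 14 became 6 without miR-224 array b and 5 without miR-452 array c. On the lower side ULK1 (-0.44 ± 0.096) and MITF (-0.38 ± 0.084), a factor related to TFEB, followed MIOS. ULK1 was lost without miR-224 array b (-0.41) or miR-452 array b (-0.35), and MITF without miR-224 array a (-0.36) or miR-452 array c (-0.39). In DU145 2 were higher, FNIP1 (0.47 ± 0.099) and RPTOR (0.34 ± 0.081), the substrate-binding subunit of mTORC1, and 2 lower, MIOS and PRKAA1 (-0.41 ± 0.085), or 8.9% against 5.91% of all genes. Dropping either untransfected array or miR-224 array a took the count of 4 to 1, dropping miR-224 array c to 0, and dropping miR-452 array c to 9. FNIP1, RPTOR and PRKAA1 were each lost without any 1 of the untransfected and miR-224 arrays.

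Against untransfected DU145 cells, 1 of the 45 rose and 9 fell with miR-224, or 22.2% of them, near the 21.0% of all genes. MIOS fell by 0.79 ± 0.11 (limma adjusted p = 0.00219), KICS2, a KICSTOR subunit, by 0.55 ± 0.091 (0.00474) and DEPDC5, a subunit of GATOR1, by 0.54 ± 0.096 (0.00615), while PRKAB2 rose by 0.33 ± 0.092 (0.0335). The count of 10 went to 2 when untransfected array b was dropped and to 1 for array c, and to 6 and 3 for miR-224 arrays a and c. MIOS passed without each array in turn, KICS2 was lost without untransfected array c (-0.47), DEPDC5 without either untransfected array or miR-224 array c, and PRKAB2 without any 1 of the 4. With miR-452 0 rose and 13 fell, led by PRKAA2 (-0.46 ± 0.090, 0.00831), FNIP1 (-0.47 ± 0.099) and RPTOR (-0.35 ± 0.081), which were each lost without either untransfected array. The 13 became 0 without either untransfected array and 4 without miR-452 array a, and 28.9% of the 45 passed where 28.2% of all genes did. After quantile normalization the count was 4, and with the letter of the array title fitted as a block it was 0. Against the single scrambled array PRKAB2 rose (0.64 ± 0.11, 0.0241) and PRKAB1 fell (-0.69 ± 0.11, 0.0195) with miR-224, and PRKAB1 fell with miR-452 (-0.54 ± 0.11, 0.0442), or 4.4% and 2.2% of the 45 against 1.94% and 2.10% of all genes. The first count, of 2, became 0 without any 1 of the untransfected and miR-224 arrays and 6 without either miR-452 array. The second, of 1, became 0 without any 1 of the same 4 arrays, 4 without miR-452 array a and 5 without array c. Between that array and untransfected cells CASTOR1, an arginine sensor (0.39 ± 0.10), rose and SLC38A9, the lysosomal arginine transporter (-0.63 ± 0.14), and MITF (-0.43 ± 0.11) fell, 3 calls in all, or 6.7% of the 45 against 11.8% of all genes. Dropping either untransfected array took this count to 0, either miR-224 array to 1, and either miR-452 array to 14.

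Several pathway genes passed in both lines against untransfected cells. With miR-224 these were 6, of 9 in PC3 and 10 in DU145: MIOS, NPRL2, another subunit of GATOR1 (-0.38 and -0.35), KICS2 (-0.31 and -0.55) and PRKAB1 (-0.49 and -0.50) were lower in both, PRKAB2 was higher in both, and PRKAA2 was higher in PC3 (0.39 ± 0.11, limma adjusted p = 0.0485) and lower in DU145 (-0.29 ± 0.090, 0.047). With miR-452 these were 6, of 7 in PC3 and 13 in DU145, and all were lower: RPTOR (-0.33 and -0.35), DEPDC5 (-0.42 and -0.36), SEH1L (-0.52 and -0.39), ITFG2 (-0.41 and -0.25), PRKAA2 (-0.45 and -0.46) and PRKAB1 (-0.59 and -0.35). Against the scrambled mimic in PC3, PRKAB1 alone of these 6 passed with miR-452 (-0.42 ± 0.077). PRKAA2 also stood at -0.37 ± 0.11 with the scrambled mimic against untransfected PC3 cells. Over all genes, 824 passed in both lines with miR-224, or 4.48% (46.3% of those that passed in PC3 and 21.4% of those in DU145), and 2166 with miR-452, or 11.8% (53.1% and 41.8%), where the 6 were each 13.3% of the 45. With miR-452 this was near the share of all genes. After quantile normalization 4 of the 45 passed in DU145 with miR-452, fewer than these 6. With the letter of the array title fitted as a block, 0 did with miR-452 and 2 with miR-224. Of the pathway calls with miR-224, those of MIOS in both lines and of PRKAB1 and PRKAB2 in PC3 passed without each array in turn, as did that of PRKAB1 in PC3 with miR-452. Each of the others was lost without at least 1 array: with miR-224 those of NPRL2, KICS2 and PRKAA2 in PC3 each without untransfected array c (-0.36, -0.31 and 0.23) or miR-224 array b (-0.31, -0.36 and 0.31), and with miR-452 those of RPTOR, DEPDC5 and PRKAA2 in PC3 each without untransfected array b (-0.32, -0.31 and -0.30). In DU145 all of the others were lost without untransfected array c. With the scrambled mimic 0 of the 45 passed in both, of 7 in PC3 and 3 in DU145, where 952 of all genes did, or 5.18%. The test of the difference itself found 3 of the 45 with a higher miR-224 change in PC3 than in DU145, where 5.13% of all genes passed: PRKAA1 (difference 0.64 ± 0.12, adjusted p = 0.00885), PRKAA2 (0.68 ± 0.15, 0.0208) and SAMTOR, a sensor of S-adenosylmethionine (0.54 ± 0.13, 0.0346). The 3 became 0 without PC3 untransfected array c, PC3 miR-224 array b or DU145 untransfected array b, and 1 without DU145 untransfected array c or miR-224 array c. PRKAA2 was lost without DU145 miR-224 array a (0.63) too, and SAMTOR after quantile normalization. For miR-452 0 of the 45 differed between the lines by limma, with 9 higher and 1 lower in PC3 at an unadjusted p under 0.05, where 2.88% of all genes passed, and 4 of the 45 passed without DU145 miR-452 array c.

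**Figure D4:**
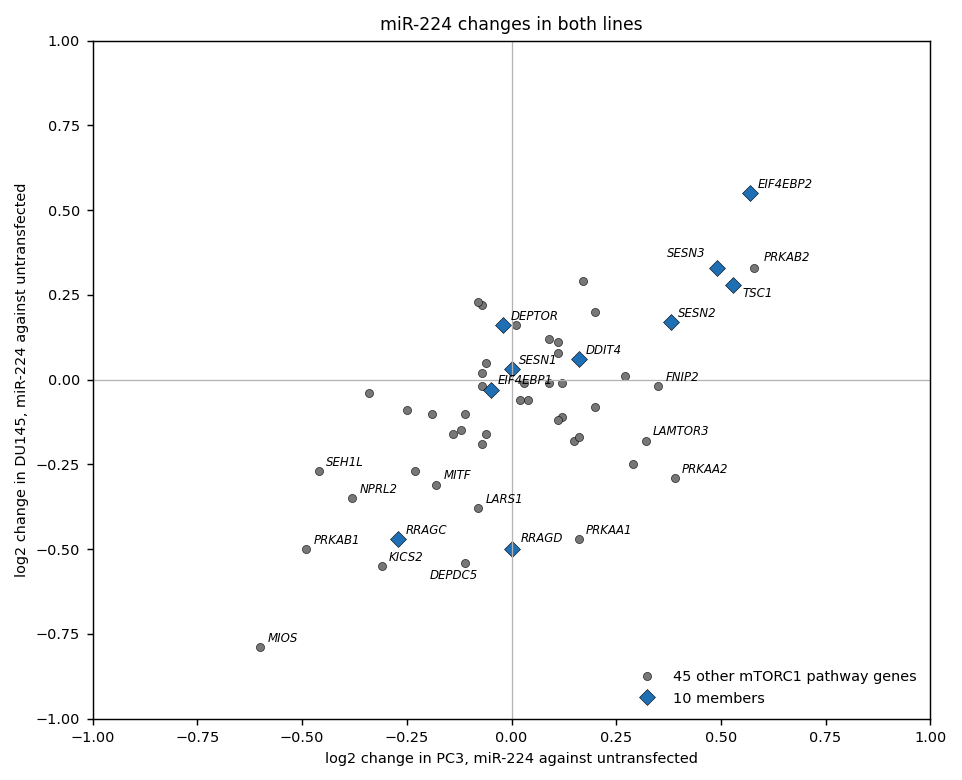
Log2 change with miR-224 against untransfected cells in PC3 (horizontal axis) and DU145 (vertical axis) for the 10 genes (blue diamonds) and the 45 other pathway genes (grey circles), with names for the 10 and for genes that passed in either line. EIF4EBP2, SESN3, TSC1 and PRKAB2 lie at the upper right, with EIF4EBP2 at 0.57 and 0.55, and MIOS lies farthest to the lower left, at -0.60 and -0.79.

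Lists of genes upstream of the 10 were also followed, with the 10 left out. Of 8 amino acid transporters, 1 rose and 0 fell in PC3 with miR-224 against the scrambled mimic, and 1 rose and 1 fell against untransfected cells, or 12.5% and 25% of them against 16.8% and 9.69% of all genes. SLC7A11, the cystine importer, rose by 0.83 ± 0.075 (limma adjusted p = 7.26e-05) and 0.49 ± 0.075 (0.00208), and passed both without each array in turn. SLC7A1, an arginine importer, fell against untransfected cells (-0.38 ± 0.10, 0.0399), and the count of 2 became 1 without any 1 of those 4 arrays. With the scrambled mimic SLC7A1 was lower than in untransfected cells as well, by -0.45 ± 0.10 in PC3 and -0.42 ± 0.11 in DU145. In DU145 SLC7A11 rose against the scrambled array by 0.81 ± 0.10 with miR-224 (0.00597) and 1.16 ± 0.10 with miR-452 (0.00335). The scrambled array itself stood at -0.90 ± 0.10 against untransfected cells (0.0114), a call lost without either untransfected array. SLC38A2, a glutamine importer, fell in DU145 with miR-224 against untransfected cells (-0.40 ± 0.084, 0.0119), 12.5% of the list against 21.0% of all genes, a count of 1 that became 0 without either untransfected array or miR-224 array c and 2 without either miR-452 array.

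Of 15 genes of the ATF4 response to amino acid shortage, 1 rose and 3 fell in PC3 with miR-224 against the scrambled mimic, or 26.7% against 16.8% of all genes, a count of 4 that became 2 without miR-224 array b. CTH, an enzyme of cysteine synthesis, fell by 1.21 ± 0.095 (limma adjusted p = 3.56e-05) and NUPR1, a stress-induced regulator, by 0.67 ± 0.080 (0.000361), while the scrambled mimic had raised both against untransfected cells, by 0.80 ± 0.095 (0.00163) and 0.53 ± 0.080 (0.00392), the latter call lost without untransfected array b (0.51). Against untransfected cells 0 rose and 2 fell with miR-224, CTH (-0.42 ± 0.095, 0.0179) and PHGDH, of serine synthesis (-0.45 ± 0.12, 0.0351), or 13.3% against 9.69% of all genes, and the 2 became 0 without untransfected array b or miR-224 array a and 1 without the other array of either group. With miR-452 against untransfected PC3 cells, 2 of the 15 rose and 3 fell, or 33.3% against 22.2% of all genes. The count of 5 became 3 without untransfected array b. CTH (0.57 ± 0.095, limma adjusted p = 0.00245) and CEBPB (0.36 ± 0.096, 0.0236) rose. ATF4 itself fell (-0.55 ± 0.094, 0.00296) and passed without each array in turn. In DU145 1 of the 15 rose and 4 fell with miR-452, or 33.3% against 28.2% of all genes. ATF4 was among those that fell (-0.41 ± 0.10, limma adjusted p = 0.0213), a call lost without either untransfected array or miR-452 array a (-0.34 to -0.49). The count of 5 became 1 without either untransfected array, 2 without miR-452 array a and 9 without array c. In DU145 with miR-224, 0 of the 15 passed against the scrambled array by limma (2 higher and 1 lower at an unadjusted p under 0.05), where 1.94% of all genes did, and 1 passed without either miR-452 array.

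Of 11 p53 target genes, 4 rose and 0 fell in PC3 with miR-224 against the scrambled mimic, or 36.4% against 16.8% of all genes, and their median was -0.04. PC3 is known to lack p53. TNFRSF10B, a TRAIL receptor, rose by 1.17 ± 0.088 (limma adjusted p = 3.35e-05), MDM2, a ubiquitin ligase for p53, by 0.68 ± 0.081 (0.00035) and FAS, a death receptor, by 0.48 ± 0.079 (0.00198), and all 3 passed without each array in turn. Against untransfected cells 3 rose and 0 fell, TNFRSF10B (0.87 ± 0.088, 0.000195), FAS (0.37 ± 0.079, 0.0126) and MDM2 (0.31 ± 0.081, 0.0338), or 27.3% against 9.69% of all genes, and these became 1 without untransfected array b or either miR-224 array. In DU145 against untransfected cells 2 rose and 3 fell with miR-224, or 45.5% against 21.0% of all genes. TNFRSF10B stood at 0.50 ± 0.087 (0.00613), lost without either untransfected array, and RRM2B, a ribonucleotide reductase subunit, at -0.58 ± 0.092 (0.00411), lost without untransfected array b (-0.55). RRM2B was as low with the scrambled array (-0.56 ± 0.11) and near that with miR-452 (-0.48 ± 0.092), so its fall was not particular to miR-224. The count of 5 went to 0 when untransfected array b was dropped, to 1 for array c, and to 3 for either miR-224 array.

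Of 11 FOXO genes and their targets, 5 rose and 0 fell in PC3 with miR-224 against the scrambled mimic, or 45.5% against 16.8% of all genes, with a median of 0.21. FOXO4 rose by 0.48 ± 0.091 (limma adjusted p = 0.00418) without each array in turn, BCL6, a transcriptional repressor, by 0.41 ± 0.078 (0.00443) and RICTOR, the defining subunit of mTORC2, by 0.32 ± 0.077 (0.015). The 5 became 2 without scrambled array c and 1 without miR-224 array b. Against untransfected cells 3 rose and 0 fell, FOXO4 (0.60 ± 0.091, 0.00208), FBXO32, a ubiquitin ligase subunit (0.46 ± 0.087, 0.00722), and BCL6 (0.29 ± 0.078, 0.0374), or 27.3% against 9.69% of all genes, and the 3 became 1 without untransfected array c. In DU145 0 of the 11 passed with miR-224 against untransfected cells by limma (0 higher and 1 lower at an unadjusted p under 0.05), where 21.0% of all genes did, and 2 did without either miR-452 array. With miR-452 0 rose and 4 fell there, or 36.4% against 28.2% of all genes, led by CDKN1B, a CDK inhibitor (-0.53 ± 0.088, 0.0048), BNIP3, a mitophagy receptor (-0.49 ± 0.089, 0.00671), and BCL6 (-0.37 ± 0.10, 0.025). The 4 became 1 and 0 without untransfected array b or c, 2 without miR-452 array a and 9 without array c. CDKN1B was also lower on the scrambled array than in untransfected DU145 cells (-0.43 ± 0.11). The median change of the 11 against those cells was -0.21 with miR-452 and -0.06 with the scrambled array.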

How the data were processed

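Affymetrix Human Gene 1.0 ST arrays were hybridised with RNA of 15 samples. The deposited values are log2 expression after RMA16 in GeneSpring GX 11.0, by the authors, with the lines normalized separately, per the series' design text. Of 28869 features, 19310 carried 1 gene symbol, 1752 several and 7807 none in the platform annotation, and 19279 of the first were updated by Entrez ID. Features of 1 symbol were averaged per gene, which gave 18377 genes. Samples were grouped by their mimic labels. Group means of each line were fitted with limma 3.58.1 (R 4.3.3), with 4 residual degrees of freedom in PC3 and 3 in DU145. All 15 arrays and 8 group means, with 7, served for the difference between lines. P-values were adjusted by Benjamini-Hochberg over all genes, with a threshold of 0.05. They measure only the spread between these arrays. The steps were tested on simulated data.

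The 10 genes and all lists were chosen with earlier results of these data known. The lists were the mTORC1 complex, Rag and Ragulator, GATOR, KICSTOR and sensors, TSC and AMPK, mTORC1 outputs, amino acid transporters, ATF4 targets, p53 targets and FOXO targets. The text names the 10 genes, the up to 3 listed genes per comparison and direction with the smallest p among those that passed (the 5 mTORC1 lists pooled), and the 3 genes most similar to each of the 3 genes of widest range. It also names genes that passed in both lines, chosen after their values were seen. Not all genes so eligible are printed. Alternatives were quantile normalization, leaving out genes under percentile 20 of mean level, fitting only the groups compared, the letter of the array title as a block, and leaving out each array. Promoters and microRNAs are RefSeq entries.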

Additional observations from a re-analysis of the deposited data

Results flagged for a closer look

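The following genes of the lists around the 10 responded to a mimic differently in the 2 lines, by limma's test of the difference between the PC3 and the DU145 change against untransfected cells over all 15 arrays. With miR-224 the difference, PC3 minus DU145, was 0.64 ± 0.12 for PRKAA1 (limma adjusted p = 0.00885), 0.68 ± 0.15 for PRKAA2 (0.0208) and 0.54 ± 0.13 for SAMTOR (0.0346). Both AMPK catalytic subunits stood higher in PC3, at 0.16 ± 0.087 and 0.39 ± 0.11, than in DU145, at -0.47 ± 0.085 and -0.29 ± 0.090. Among amino acid transporters it was 0.58 ± 0.10 for SLC7A11 (limma adjusted p = 0.00711), which passed without each array in turn, and 0.46 ± 0.11 for SLC38A2 (0.027), lost without PC3 untransfected array c (0.39) and other arrays. NUPR1 differed in the other direction, by -0.62 ± 0.14 (limma adjusted p = 0.023), lost without PC3 untransfected array c (-0.60), PC3 miR-224 array b, either DU145 untransfected array or DU145 miR-224 array c (-0.52).

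A further 3 genes differed with miR-224 by limma: BCL6 by 0.60 ± 0.12 (adjusted p = 0.0146), ZMAT3, an RNA-binding protein, by 0.72 ± 0.18 (0.0314) and FAS by 0.51 ± 0.14 (0.0425). BCL6, ZMAT3 and FAS were each lost without PC3 untransfected array c (0.61, 0.69 and 0.55), PC3 miR-224 array b (0.55, 0.69 and 0.53), either DU145 untransfected array or DU145 miR-224 array c (0.58, 0.63 and 0.41), among others for the last 2. With miR-452 CTH differed by 0.87 ± 0.14 (limma adjusted p = 0.00467), without each array in turn, and PSAT1, of serine synthesis, by -0.55 ± 0.13 (0.0425), lost without PC3 miR-452 array c (-0.43) and other arrays. The causes were not tested.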

How the results depend on the processing

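Across all alternatives run, no value of the 10 genes or of the named pathway genes that passed turned its direction. Counts of genes past the threshold that moved by more than 1.5 times are given here, first for the 10 genes and then for the 45 pathway genes, and the cause was not tested. Fitting the letter as a block leaves fewer residual degrees of freedom than the 4 in PC3 and 3 in DU145 of the main fits. Deviations from the group means of arrays with the same letter in their titles correlated between -0.31 and 0.27. With at most 2 arrays per group, these values cannot settle whether the letters pair the arrays. With the letter as a replicate block the 10-gene counts were 0 in DU145 for miR-224 against scrambled (from 2), miR-452 against scrambled (from 1), miR-224 against untransfected (from 4) and miR-452 against untransfected (from 1). The 45-gene counts with the replicate block were, in PC3, 8 for miR-224 against scrambled, 5 for miR-224 against untransfected, 4 for scrambled against untransfected and 7 for miR-224 against miR-452. In DU145 they were 0 for each mimic against scrambled, 2 for miR-224 against untransfected, 0 for miR-452 and 0 for scrambled against untransfected, 2 for miR-224 against miR-452, and 0 for the line difference with miR-224. With letters crossed as a replicate block, chosen after seeing the data, in PC3 untransfected cells the counts were 2 for scrambled against untransfected (10 genes), 8 for miR-224 against miR-452 (45 genes) and 0 for the line difference, and in DU145 miR-452 cells, for the 10 genes, 0 for each mimic against scrambled, 2 for miR-224 and 2 for scrambled against untransfected and 6 for miR-224 against miR-452, and for the 45 genes 0 for each mimic against scrambled and 1 for the line difference.

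Quantile normalization gave 10-gene counts of 2 for scrambled against untransfected in each line and 5 for miR-224 against miR-452 in DU145. It gave 45-gene counts of 12 for miR-452 and 2 for scrambled against untransfected in PC3, and in DU145 4 for each mimic against scrambled, 4 for miR-452 and 1 for scrambled against untransfected. Leaving out genes under percentile 20 gave 2 of the 10 for scrambled against untransfected in DU145. Fitting only the groups compared gave, for scrambled against untransfected, 3 of the 45 in PC3 and 4 of the 10 and 19 of the 45 in DU145, and further DU145 counts among the 45 of 4 for miR-224 and 0 for miR-452 against scrambled and 1 for miR-224 against miR-452.

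Leaving out each array in turn gave, for the 10 genes, PC3 ranges of 3 to 4 for miR-224 against scrambled, 1 to 4 against untransfected and 2 to 4 against miR-452. DU145 ranges were 0 to 5 for miR-224 and 1 to 2 for miR-452 against scrambled, 1 to 5, 0 to 2 and 0 to 3 for miR-224, miR-452 and scrambled against untransfected, and 1 to 4 for miR-224 against miR-452. Line differences ranged from 0 to 1 with each mimic. For the 45 genes, PC3 ranges were 6 to 15 and 0 to 2 for miR-224 and miR-452 against scrambled, 3 to 9, 1 to 8 and 0 to 8 for miR-224, miR-452 and scrambled against untransfected, and 5 to 14 between the mimics. In DU145 they were 0 to 6, 0 to 5, 1 to 14, 0 to 19, 0 to 14 and 0 to 9 in the same order, and 0 to 4 for the line difference with each mimic. Each of the 10 genes came from 1 feature, so no feature-level alternative could be given.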
